A study of Homo sapiens with 2 samples.

Results

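The RNA-Seq counts were examined for 49 genes that encode SR proteins, heterogeneous nuclear ribonucleoproteins (hnRNPs), proteins of the U1 and U2 small nuclear ribonucleoproteins (snRNPs), both U2AF subunits and the RNA-binding proteins PABPC1, ELAVL1 and RBFOX2. The genes were taken from a list of symbols that was fixed with earlier results of these data known. Of the 49 genes, 48 had a row among the 57736 Ensembl genes of the counts. The counts of SRSF8 were not analysed here. The samples were A1847 cells, a human epithelial ovarian cancer line, with 1 library for the parental control (CARM1 wild type) and 1 for CARM1 KO. The CARM1 KO cells were 1 clone made with a CARM1 guide RNA in pLentiCRISPR, which also carries Cas9. The labels describe this vector for both samples and do not say whether the parental cells received an empty vector. Both lines were cultured in RPMI medium with fetal bovine serum, and no drug treatment is named for either library. CARM1 is an arginine methyltransferase, and the study asked which genes it regulates in these cells.

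Introns are removed from pre-mRNA by the spliceosome. U1 snRNP pairs with the start of the intron, the U2AF heterodimer reads its end, and U2 snRNP is loaded on the branch point between them. SR proteins, with arginine-serine rich tails, mostly help exons to be recognised, whereas hnRNPs coat the pre-mRNA and often keep exons or cryptic sites out. Cells adjust many of these proteins through splicing of their own transcripts. CARM1 is known to methylate several of them, among which are SmB (SNRPB), SNRPC, SF3B4, PABPC1 and HuR (ELAVL1). Methylation, protein levels and splicing itself were not measured in these counts, which give 1 number of reads per gene.

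The parental library held 30741953 reads and the CARM1 KO library 32300391. For the targeted gene, CARM1, 975 parental and 380 CARM1 KO reads were counted, 2.65-fold lower (95% interval 2.35 to 2.99). Each fold change given here is a ratio of reads after TMM scaling between the libraries, and each interval is an exact binomial one that covers counting error only. Because each group had 1 library, no difference has a replicate check and no test was made. The fold changes compare these libraries rather than the conditions, and they cannot tell less RNA per cell from fewer cells of a kind. The epithelial and ovarian carcinoma markers, 10 genes, summed to 43988 parental and 151486 CARM1 KO reads. KRT8 had 17600 and 70370 of these reads and KRT18 had 21154 and 51223. Of the 8 markers with a sum of 10 or more reads, 7 were higher and 1, KRT19 with 45 and 0 reads, was lower. In each library 3 of the 10 had under 10 reads, MUC16 and WT1 among them in both. Of the 4 fibroblast markers, which summed to 14542 parental and 540 CARM1 KO reads, PDGFRA alone had 14326 and 2, while COL1A1 had 131 and 537. The 5 leukocyte markers summed to 409 and 1666 reads, of which CD68 alone held 400 and 1644, while PTPRC had 6 and 0 and CD3E had 0 in both. KRT8 and KRT18 thus make up most of the epithelial sum, and single genes most of the fibroblast and leukocyte sums. The 2 endothelial markers with a row summed to 1 and 2 reads. The part of these markers in the differences of the splicing factors was not tested.

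The splicing factors held close levels in both libraries. Of the 48 genes, 37 lay within 1.5-fold, 2 were more than 1.5-fold higher and 9 were more than 1.5-fold lower in CARM1 KO cells. Past the 3-fold threshold of the study, taken without its limit on the false discovery rate, 0 were higher and 1, SRSF12, was lower. Among the 18563 genes tested, those with a sum of 10 or more reads over the libraries, 24.5% were past 3-fold in either direction, with 12.7% higher and 11.8% lower. Past 1.5-fold the shares were 28.3% higher and 29.2% lower, 57.5% in all. Splicing factors are abundant, and 46 of the 48 had a sum of 1000 or more. Among the 7789 genes of that abundance 5.74% were past 3-fold higher and 4.7% lower, 10.4% in all, and 21.2% were past 1.5-fold higher and 20.7% lower, 41.8% in all. Among the 14140 protein-coding genes tested the same shares were 12.6%, 9.26% and 21.9% past 3-fold and 28.6%, 25.6% and 54.1% past 1.5-fold. Of the 48 splicing factors 2.08% were past 3-fold and 22.9% past 1.5-fold.

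**Figure D1:**
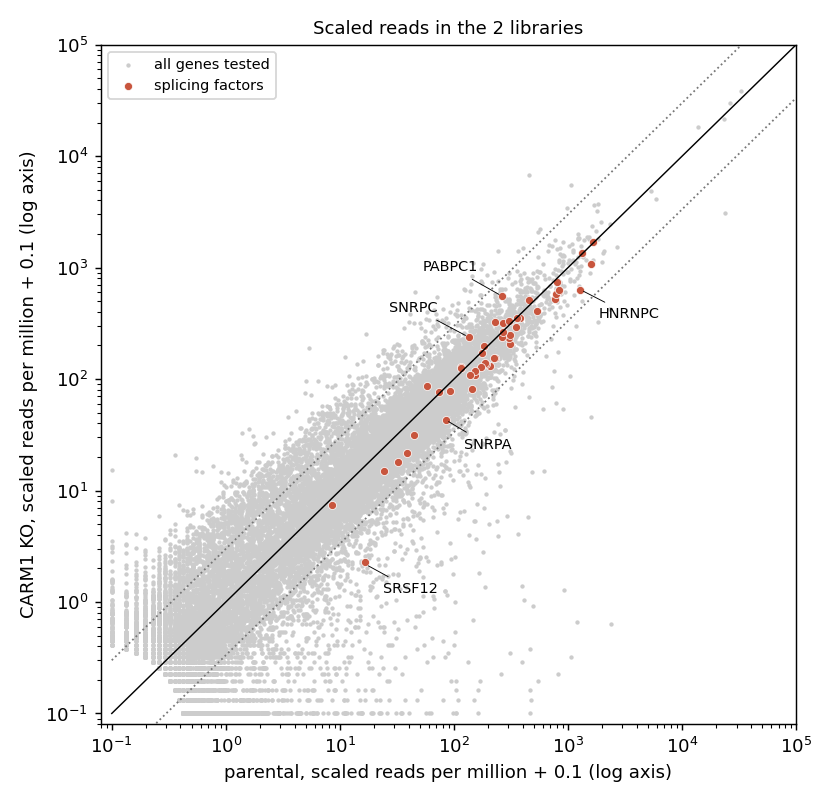
TMM-scaled CPM plus 0.1 in parental (x axis) and CARM1 KO cells (y axis), both on log axes, for the 18563 genes tested (grey) and the 48 splicing factors (red). The solid line marks equal levels and the dotted lines 3-fold differences; SRSF12 is the one splicing factor outside them.

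Within that narrow range the levels leaned downwards. In CARM1 KO cells 35 of the 48 genes (72.9%) were under their parental level, against 51.5% of all genes tested. The median log2 fold change was -0.36, with quartiles of -0.54 and 0.02, whereas that of all genes tested was -0.04, with quartiles of -0.73 and 0.71. Together the splicing factors took 540923 parental and 479443 CARM1 KO reads, 1.76% and 1.48% of the libraries, which after scaling was 1.17-fold lower (95% interval 1.16 to 1.17).

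Levels between genes were compared as RPKM, computed from the scaled reads and the length of the canonical transcript. In parental cells they ran from 4.64 for SRSF12 to 475 for SF3B6, and in CARM1 KO cells from 0.609 for SRSF12 to 470 for HNRNPK. The order of the genes was nearly the same in both libraries, with a Spearman rho of 0.964 over the 48 genes, which share these libraries and their lengths. HNRNPK, HNRNPA1 and SF3B6 stood at the top of both libraries, and SF3A1, SF3A2 and SRSF12 at the bottom.

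**Figure D2:**
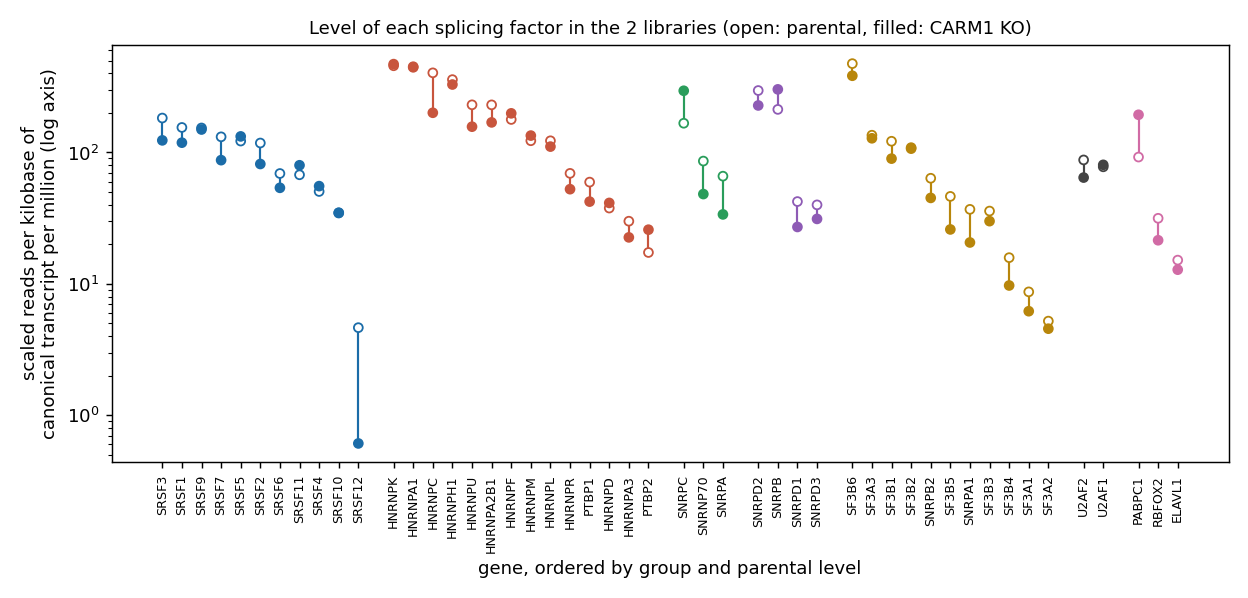
RPKM from scaled reads and canonical transcript length (log axis) for each splicing factor in parental (open) and CARM1 KO cells (filled), ordered by group and parental level. SRSF12 shows the longest line, from 4.64 in parental to 0.609 in CARM1 KO cells; no error is drawn because each group had 1 library.

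Of the 11 SR protein genes with counts, SRSF12 and SRSF7 were more than 1.5-fold lower and 9 lay within 1.5-fold. SRSF12, a relative of SRSF10 known to counteract other SR proteins, had 516 parental and 70 CARM1 KO reads. It was 7.61-fold lower (95% interval 5.92 to 9.92). SRSF10, its relative with a similar role as a splicing repressor, had 8252 and 8479 reads, so that SRSF12 had 0.0625 reads per read of SRSF10 in parental and 0.00826 in CARM1 KO cells. This ratio is taken within each library and does not depend on the scaling between them. SRSF12 lies on chromosome 6 on the minus strand, and it is shown with its promoter because it was the splicing factor past 3-fold. The 250 bases upstream of its start, from RefSeq (GRCh38.p14), matched GRCh37 at chr6:89827791-89828040, with GC boxes (GGGCGG on either strand) in capitals.
SRSF12: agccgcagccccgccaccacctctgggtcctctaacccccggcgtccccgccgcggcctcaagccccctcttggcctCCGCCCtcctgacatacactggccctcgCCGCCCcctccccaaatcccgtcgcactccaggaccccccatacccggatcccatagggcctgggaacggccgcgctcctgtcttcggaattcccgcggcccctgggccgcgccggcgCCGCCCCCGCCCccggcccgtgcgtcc
The window was 75.6% G and C and held 28 CpG dinucleotides.

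The next lowest SR genes were SRSF7, SRSF3 and SRSF2, each of which binds exonic enhancers, and SRSF3 and SRSF7 also help mRNA leave the nucleus. SRSF7 had 9600 parental and 6589 CARM1 KO reads, 1.505-fold lower (95% interval 1.46 to 1.55), which straddles the 1.5-fold limit. SRSF3 had 23952 and 16727 reads, 1.48-fold lower, and SRSF2 had 6908 and 4936 reads, 1.45-fold lower. SRSF1, the founding member of the family, was 1.31-fold lower with 25677 and 20305 reads. SRSF6 was 1.29-fold lower with 9328 and 7497 reads. The others were nearer to equal. SRSF9 had 5483 and 5512 reads and SRSF10 was equally close, with intervals that hold equal levels for both. SRSF11 had 8298 and 10125 reads, 1.18-fold higher, and was the highest of the family relative to parental cells. SRSF4 had 3598 and 4080 reads, and SRSF5 had 5662 and 6343 reads, 1.10-fold and 1.09-fold higher.

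Among the 14 hnRNP genes, PTBP1 and PTBP2 included, 1 was more than 1.5-fold lower and 0 were more than 1.5-fold higher. The lower gene was HNRNPC, which binds runs of uridine and keeps Alu-derived exons out of mRNA. HNRNPC had 39605 parental and 20313 CARM1 KO reads, 2.01-fold lower (95% interval 1.98 to 2.05). It is encoded on chromosome 14 on the minus strand, and its promoter is shown because it had the largest difference after SRSF12 among the genes that were lower. The RefSeq window matched GRCh37 at chr14:21737654-21737851 once 52 bases inside the annotated gene were left out. A CCAAT box on either strand and a TATAAA match are in capitals.
HNRNPC: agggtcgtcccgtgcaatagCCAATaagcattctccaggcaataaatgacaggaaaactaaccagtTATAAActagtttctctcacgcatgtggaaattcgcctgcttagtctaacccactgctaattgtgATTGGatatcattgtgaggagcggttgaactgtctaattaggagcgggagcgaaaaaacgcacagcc
The stretch shown was 44.9% G and C, with 8 CpG dinucleotides, and the full window of 250 bases was 48.4% G and C, with 12. The full window also held a GC box, which is not within the stretch shown.

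Of the other 13 hnRNP genes, 7 differed by at most 1.11-fold, 5 were lower by 1.32-fold to 1.47-fold and 1, PTBP2, was 1.49-fold higher. HNRNPA1, which antagonises SR proteins at exons, had 51623 and 53867 reads, and HNRNPK, which binds cytosine-rich RNA, had 40921 and 43502 reads. Their log2 fold changes were 0.02 and 0.04. HNRNPF and HNRNPH1, which bind runs of guanosine, had 14200 and 16320 reads and 24888 and 23592 reads. HNRNPD, which also marks AU-rich mRNA for decay, had 3588 and 4055 reads. HNRNPM had 9429 and 10656 reads, and HNRNPL, which binds CA repeats, had 8148 and 7596 reads.

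In the lower group HNRNPU, a nuclear scaffold protein, had 49059 parental and 34540 CARM1 KO reads, 1.47-fold lower (95% interval 1.45 to 1.49). HNRNPA2B1 had 25901 and 19678 reads, HNRNPA3 had 5305 and 4126 reads, and HNRNPR had 16653 and 13034 reads, 1.36-fold, 1.33-fold and 1.32-fold lower. The polypyrimidine tract-binding proteins differed in opposite directions. PTBP1, the form most cells use to silence neuronal exons, had 5910 and 4336 reads, 1.41-fold lower (95% interval 1.35 to 1.46). PTBP2, the form typical of neurons, had 1783 and 2746 reads, 1.49-fold higher (95% interval 1.41 to 1.58). The reads of PTBP2 per read of PTBP1 were therefore 0.302 in parental and 0.633 in CARM1 KO cells, a 2.10-fold change (95% interval 1.955 to 2.25, by a normal approximation on the log odds).

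The U1-specific proteins showed opposite differences, and each was past 1.5-fold. SNRPC, which steadies the pairing of U1 with the intron start and is a CARM1 substrate, had 4170 parental and 7609 CARM1 KO reads, 1.77-fold higher (95% interval 1.70 to 1.84). SNRNP70 had 4453 and 2579 reads, 1.78-fold lower (95% interval 1.70 to 1.87). SNRPA, which like SNRNP70 binds a stem loop of U1 RNA, had 2612 and 1380 reads, 1.955-fold lower (95% interval 1.83 to 2.09). SNRPC and SNRNP70 had nearly equal reads in parental cells, 0.936 to 1, and the ratio was 2.95 in CARM1 KO cells, a 3.15-fold change (95% interval 2.96 to 3.35). The ratio of SNRPA to SNRNP70 differed less, with 0.587 in parental and 0.535 in CARM1 KO cells, and its 1.10-fold change had an interval of 1.01 to 1.19. The summed reads of the U1 genes, 11235 and 11568, were thus equal within counting error, with a ratio of 0.997 (95% interval 0.971 to 1.02), although each of the 3 genes differed. The SNRPC promoter is shown as that of the higher gene, on the plus strand of GRCh37 at chr6:34725032-34725281. The GC box, a TATAAA match and an ETS core (CCGGAAG) are in capitals, with the ETS core present on both strands where the copies overlap.
SNRPC: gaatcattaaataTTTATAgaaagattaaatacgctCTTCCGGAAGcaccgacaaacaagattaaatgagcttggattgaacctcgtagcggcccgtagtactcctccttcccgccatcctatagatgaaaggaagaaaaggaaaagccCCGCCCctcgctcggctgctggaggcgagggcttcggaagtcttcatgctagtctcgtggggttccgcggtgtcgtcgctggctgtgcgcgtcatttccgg
It was 52.0% G and C with 20 CpG dinucleotides.

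The Sm proteins form the ring around the RNA of U1, U2, U4 and U5. SNRPB, which encodes the CARM1 substrate SmB, was higher in CARM1 KO cells, with 7132 and 10468 reads, 1.42-fold (95% interval 1.38 to 1.47). The ring partners were lower. SNRPD1 had 6368 and 4212 reads, 1.56-fold lower (95% interval 1.501 to 1.62) and past the 1.5-fold limit. SNRPD2 had 4727 and 3757 reads and SNRPD3 had 4287 and 3462 reads, 1.30-fold and 1.28-fold lower. The ratio of SNRPD2 to SNRPD3 was 1.10 in parental and 1.09 in CARM1 KO cells, equal within counting error, whereas SNRPB had 1.12 reads per read of SNRPD1 in parental and 2.49 in CARM1 KO cells.

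Each of the 11 U2 snRNP genes had a lower scaled level in CARM1 KO cells, against 51.5% of all genes tested. Of the 11, 3 were more than 1.5-fold lower (27.3%), close to the 29.2% of all genes tested and the 20.7% of those with 1000 or more reads. The median log2 fold change of the group was -0.44, with a range from -0.84 to -0.02. The intervals of SF3A2 and SF3B2 included equal levels, and under upper-quartile scaling SF3B2 changed sign, so the count of lower genes is then 10. The genes past 1.5-fold were SNRPA1, SF3B5 and SF3B4. SNRPA1, which binds U2 RNA together with SNRPB2, had 1203 parental and 695 CARM1 KO reads, 1.79-fold lower (95% interval 1.63 to 1.97). SF3B5, a small subunit of the SF3B complex, had 990 and 573 reads, 1.78-fold lower (95% interval 1.61 to 1.98). SF3B4, a CARM1 substrate that tethers U2 upstream of the branch point, had 757 and 480 reads, 1.63-fold lower (95% interval 1.45 to 1.83).

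The remaining U2 genes lay within 1.5-fold. SF3B1, which clamps the branch point and is mutated in several cancers, had 24376 and 18567 reads, 1.36-fold lower. Its partners SF3B2 and SF3B3 had 11030 and 11200 reads and 10756 and 9306 reads, 1.02-fold and 1.19-fold lower. SF3B6, which lies beside the branch point, had 9574 and 7994 reads, 1.24-fold lower. SNRPB2 had 4755 and 3479 reads, 1.41-fold lower. Of the SF3A trimer, SF3A1 had 1370 and 1008 reads, 1.40-fold lower, SF3A2 had 261 and 236 reads, and SF3A3 had 11630 and 11387 reads, 1.06-fold lower. SF3A2 had the fewest reads of the 48 genes after SRSF12 in CARM1 KO cells and the widest interval of the group, 1.14-fold lower (95% interval 1.37-fold lower to 1.05-fold higher). Both U2AF subunits stayed within 1.5-fold. U2AF2, which binds the polypyrimidine tract, had 5834 and 4423 reads, 1.36-fold lower (95% interval 1.31 to 1.42). U2AF1, which contacts the AG at the intron end, had 2277 and 2435 reads, an interval that includes equal levels.

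PABPC1 differed most among the genes that were higher. PABPC1 coats the poly(A) tail in the cytoplasm, is a CARM1 substrate and has an mRNA of the kind that is translated together with ribosomal protein mRNAs. It had 8181 parental and 17732 CARM1 KO reads, 2.10-fold higher (95% interval 2.04 to 2.16). ELAVL1 (HuR), which stabilises AU-rich mRNA and is likewise methylated by CARM1, had 2843 and 2483 reads, 1.18-fold lower (95% interval 1.12 to 1.25). RBFOX2, which binds UGCAUG and controls exons that switch between epithelial and mesenchymal cells, had 7050 and 4954 reads, 1.47-fold lower (95% interval 1.42 to 1.52). The CARM1 substrates named above therefore lay on both sides, with PABPC1, SNRPC and SNRPB higher and SF3B4 and ELAVL1 lower.

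The differences were set beside those of neighbouring genes, because the splicing factors lie on 20 chromosomes. For each gene the median log2 fold change of the 10 nearest protein-coding genes with at least 50 reads was taken, 5 on each side, or as many as the chromosome end left. The splicing factor and its neighbours were on the same side of 0 for 32 of 48 genes, and the Spearman rho between them was 0.467 as a description over genes, which are not independent. Of the 11 genes past 1.5-fold, 8 were on the side of their neighbours, and for 5 the neighbours were themselves past 1.5-fold in median the same way. Over the 48 genes, the neighbours of 14 were past 1.5-fold in median in either direction. These counts were not taken over all genes tested, so they cannot be called particular to the splicing factors. SNRNP70 had a log2 fold change of -0.83 beside neighbours at -1.56, SNRPA had -0.97 beside -0.73, and SNRPC had 0.82 beside 0.64. SRSF7 had -0.59 beside -0.995, and SF3B4 had -0.70 beside -0.99. On the other hand SRSF12, at -2.93, lay among neighbours with a median of 0.59, and HNRNPC, at -1.01, among neighbours at 0.15. HNRNPA1 was at 0.02 and its neighbours had a median of -1.06, and SRSF10 and SRSF11 were at -0.01 and 0.24 beside neighbours at 0.98 and 1.11. DNA copy number was not measured, and its part in these values was not tested.

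**Figure D3:**
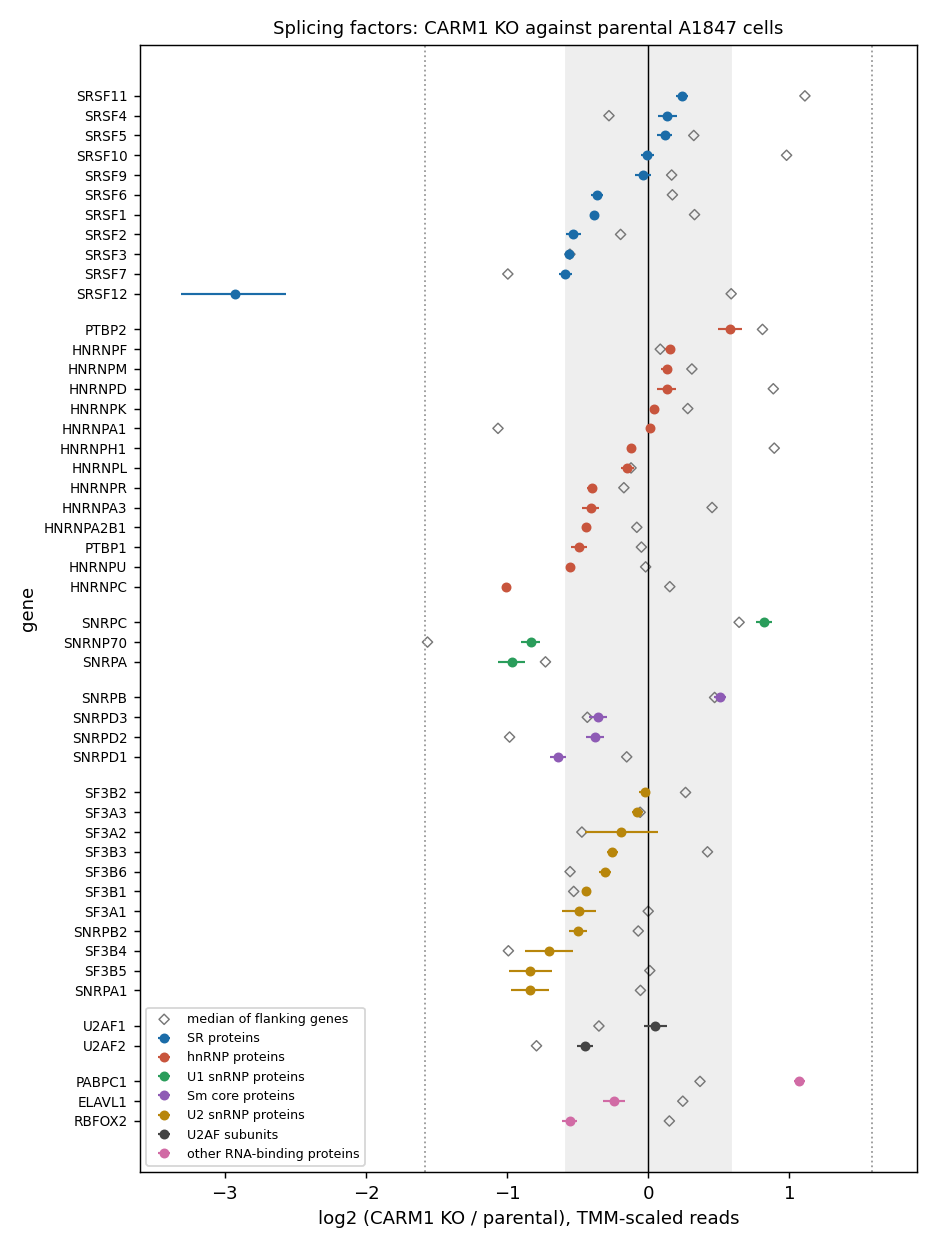
The log2 ratio of TMM-scaled reads in CARM1 KO over parental cells for each splicing factor (filled points, with exact 95% binomial intervals for counting error) and the median of its flanking genes (open diamonds). The grey band marks 1.5-fold and the dotted lines 3-fold; 37 of the 48 points lie in the band, SRSF12 at -2.93 lies past the dotted line, and each of the 11 U2 snRNP points lies left of 0.

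Promoters were compared as a property that did not enter the list. An entry was found in the RefSeq table for 42 of the 49 genes, SRSF8 included, and not for SRSF2, HNRNPA1, SNRPD1, SF3B3, PABPC1, ELAVL1 and RBFOX2. In the 250 bases upstream of the start, the 42 genes had a median of 24.5 CpG dinucleotides, against 11 for all 27305 promoters of the table and 22 for the 6314 promoters of genes with 1000 or more reads. The ETS core CCGGAAG, searched on both strands, was present in 16 of the 42 windows (38.1%), against 8.82% of all promoters and 19.1% of those of the abundant genes. By group it was found in 8 of 10 U2 snRNP windows, those of SNRPA1, SNRPB2, SF3A1, SF3A2, SF3A3, SF3B2, SF3B4 and SF3B6. It was found in 2 of 3 Sm windows, 1 of 3 U1 windows, 1 of 2 U2AF windows, 2 of 11 SR protein windows and 2 of 13 hnRNP windows. The GC box GGGCGG was present in 59.5% of the 42 windows, against 42.3% of all promoters and 68.7% of the abundant ones. CCAAT was present in 33.3%, TATAAA in 11.9%, and the E-box CACGTG in 9.52%. The shares were 33.0%, 11.1% and 6.49% of all promoters and 36.5%, 5.05% and 9.25% of the abundant ones. The palindrome known as the CGCG element was present in the windows of HNRNPK and SRSF10, 4.76%, against 0.41% of all promoters and 1.09% of the abundant ones. The NRF1 palindrome was present in 0 of the 42 windows, against 1.13% and 2.5%. A match is a description of these letters and not of binding.

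The other genes of the splicing machinery were read from lists of related proteins. Without the list labelled as cell-type restricted regulators, 109 related genes were tested. Of these 0 were past 3-fold higher, 1 was past 3-fold lower, 11 were past 1.5-fold higher and 25 were past 1.5-fold lower. Past 1.5-fold in either direction this was 33.0%, against 57.5% of all genes tested and 41.8% of those with 1000 or more reads, and past 3-fold it was 0.917%, against 24.5% and 10.4%. The median log2 fold change of these 109 genes was -0.16. The gene past 3-fold was SRPK2, a kinase that phosphorylates the tails of SR proteins, with 2535 parental and 807 CARM1 KO reads, 3.24-fold lower (95% interval 2.996 to 3.52). The other Sm, LSM, U1 and U2 associated genes leaned the way of the U2 snRNP genes, with 20 of 24 under their parental level and a median of -0.47. The PRP19 complex and catalytic step factors leaned the opposite way, with 15 of 20 above their parental level and a median of 0.29. For the U4/U6.U5 tri-snRNP the numbers were 9 above and 8 under, with a median of 0.16. Of all genes tested, 51.5% were under their parental level, with a median of -0.04. With 1 library per group, the direction of these lists was not tested. The medians were -0.34 for 8 genes of the exon junction complex, -0.02 for 9 genes of the minor spliceosome, -0.27 for 16 further hnRNP-type genes and -0.43 for 15 SR-related proteins and kinases.

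The genes of the list labelled as cell-type restricted regulators differed more widely. The label was not checked against other cell types, and the list also holds genes with many reads in both libraries. KHDRBS1 had 5773 parental and 4699 CARM1 KO reads and CELF1 had 5357 and 4487, both within 1.5-fold, as were 8 of the 22 genes tested. MBNL1 had 4471 and 7199 reads, 1.56-fold higher. Of the 22 genes of this list that were tested, 6 were past 3-fold higher and 2 past 3-fold lower. This was 36.4% in all, against 24.5% of all genes tested and 10.4% of those with 1000 or more reads. Past 1.5-fold it was 63.6%, against 57.5% and 41.8%. The list mixes genes with few and with many reads, so neither share matches it in abundance. With so few genes, a difference from all genes was not tested. The highest ratios were those of ESRP2 (27 to 162 reads), ESRP1 (21 to 123 reads) and MBNL3 (33 to 190 reads), 5.81-fold, 5.67-fold and 5.58-fold higher. Their levels were low, with a parental RPKM of 0.254, 0.180 and 0.0865. Not each gene past 3-fold higher was so low, since MBNL2 had 1023 and 5280 reads and a parental RPKM of 7.10. It was 5.00-fold higher (95% interval 4.67 to 5.35). The ESRPs drive epithelial splicing patterns and MBNL3 belongs to the muscleblind family. RBM20, which controls titin splicing in muscle, had 466 parental and 25 CARM1 KO reads, 19.3-fold lower (95% interval 12.9 to 30.1), and CELF5 had 31 and 7 reads. ELAVL2, chosen after its values were seen as a relative of ELAVL1, had 364 and 1886 reads, so that its reads per read of ELAVL1 were 0.128 in parental and 0.760 in CARM1 KO cells. Whether these regulators differ from the core splicing factors beyond chance cannot be tested with 1 library per group.

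**Figure D4:**
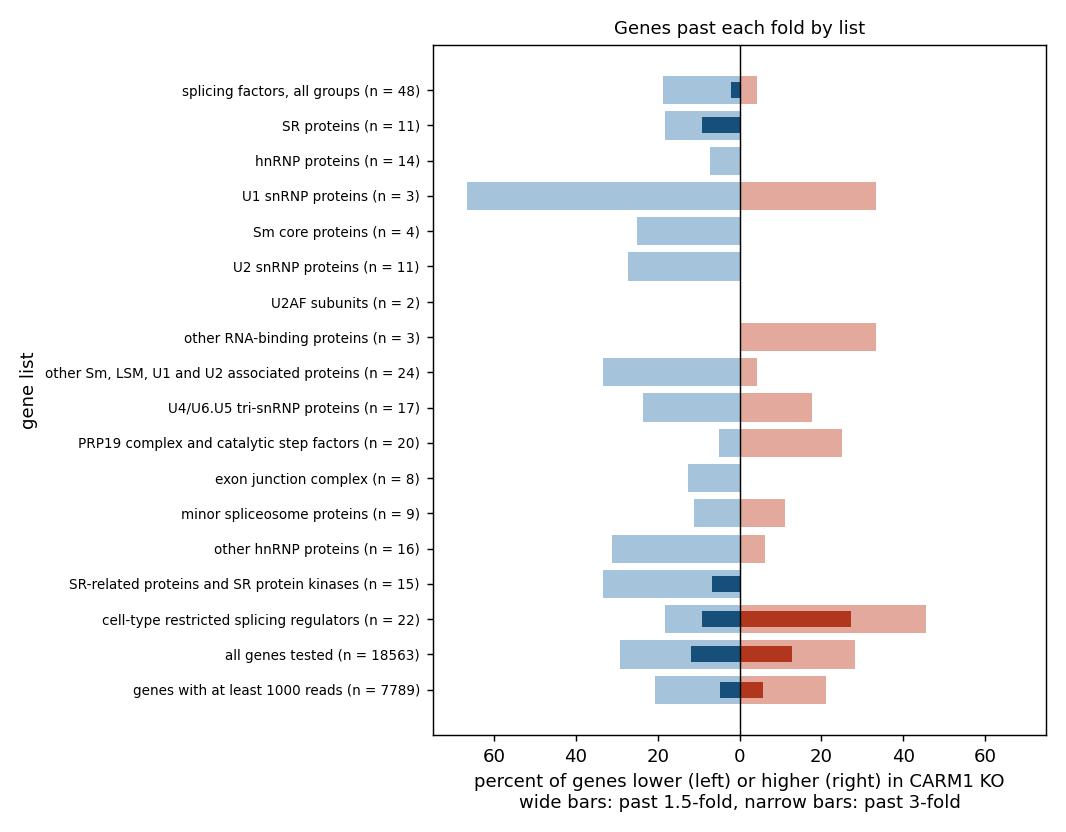
Percent of the genes of each list that were lower (left, blue) or higher (right, red) in CARM1 KO cells past 1.5-fold (wide bars) and past 3-fold (narrow bars), with the number of genes in brackets. The list labelled as cell-type restricted regulators has 36.4% of genes past 3-fold in both directions together, the 48 splicing factors 2.08% and all genes tested 24.5%.

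The counting of shared sequence bears on a few of these values. Pseudogenes named after a splicing factor had reads for 12 of the 48 genes and never came to 10% of the parent gene. They were found by symbol alone, so copies with other names were not counted. The highest share was that of HNRNPA3, at 4.67% of its reads in parental cells. Adding pseudogene reads to those of the parent moved a log2 fold change by at most 0.05. For 6 splicing factors the genes that overlap them in position had reads of their own that came to more than 10% of the reads of the splicing factor. These were SRSF2, SRSF9, HNRNPA2B1, HNRNPA3, SNRPA1 and SF3A2, and at SRSF9 (162%) and SF3A2 (197%) the overlapping genes had more reads than the splicing factor. Of these SNRPA1 was the one past 1.5-fold, and PCSK6, which overlaps it on the same strand, had 22.6% as many reads. The use of strand in the counting is not stated, so the division of reads at these genes is uncertain.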

How the data were processed

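RNA-Seq was analysed from 1 parental control and 1 CARM1 KO library of A1847 cells. The authors aligned paired-end reads to hg19 with bowtie2 and used RSEM to estimate raw counts per gene from an Ensembl annotation, and the deposited counts are whole numbers. The Ensembl release and the use of strand are not given in the sources used here. RSEM divides reads between genes of shared sequence.

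Of the 57736 identifiers, 55501 were named from the GENCODE annotation on GRCh37, the same build. Genes with a sum of 10 or more reads over the libraries were scaled with TMM in edgeR 4.0.16 under R 4.3.3, and folds were taken without a pseudocount. Exact 95% Clopper-Pearson intervals came from scipy 1.17.1. The study used edgeR with a 3-fold threshold and a limit on the false discovery rate. With 1 library per group the dispersion would have to be assumed, so no test was made and the counts here use the fold alone. The steps were tested on simulated data with counting noise only, in which a far smaller share of genes changed than in these libraries. That run therefore does not check the scaling where many genes differ. Alternatives were other scalings, a prior count of 2 and other minimums of reads. The members and lists were chosen with earlier results of these data known. Named genes were the members and related genes past 3-fold, at most 3 in each direction per list. ELAVL2, MBNL1, MBNL2, KHDRBS1 and CELF1 were named besides these, after their values were seen. RBM8A and TAF15 were not analysed here, and no ChIP-seq data were used.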

Additional observations from a re-analysis of the deposited data

How the results depend on the processing

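The scaling and the minimum of reads changed few results. With genes of at least 1000 reads, SRSF12 was no longer tested and 0 splicing factors were past 3-fold lower. Under the other alternatives SRSF12 was past 3-fold lower and 0 genes were past 3-fold higher. Between 2 and 3 genes were past 1.5-fold higher and between 7 and 12 past 1.5-fold lower, the most with TMM on protein-coding genes. The median over the splicing factors lay between -0.39 and -0.32 on the log2 scale. Of 288 recomputed values of single genes, 262 stayed within the counting interval, 0 of the genes past 1.5-fold reversed, and 3 genes close to equal levels, HNRNPA1, SRSF10 and SF3B2, changed sign. Adding pseudogene reads was chosen after seeing the data. Depth limits SF3A2 and SRSF12 most. No paired analysis was possible because each group had 1 library, which also left no replicate to leave out.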
